A study of Mus musculus with 2 samples.

Results

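The Notch receptors and their ligands were followed in stem cells of skeletal muscle (MuSCs, which express Pax7 and lie along the fibres) from male C57BL/6 mice. The set was fixed by name and holds 9 of the 24532 gene IDs of the count table: the 4 receptor genes Notch1, Notch2, Notch3 and Notch4, the 4 ligand genes Dll1, Dll4, Jag1 and Jag2, and Mib1, which encodes a ubiquitin ligase of the ligands. There were 2 RNA-seq libraries of freshly sorted cells, 1 from wild-type (WT) and 1 from double-knockout (dKO) mice. The dKO mice carried Esr2-/-, a homozygous loss of the estrogen receptor beta gene, a conditional allele of a further gene, and Pax7-CreER, which expresses a Cre recombinase from Pax7 that tamoxifen activates. Cre from Pax7 acts in Pax7-expressing cells, so other cell types in a sort would keep the conditional gene. The tamoxifen protocol, oral dosing at 20 mg/mL on 5 days from 3 months of age, is attached to both libraries, and both titles read 6M, a mark that the labels do not explain. The sort took CD31-negative, CD45-negative, Sca1-negative and Vcam1-positive cells of limb muscle. The labels do not say how many animals were pooled.

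Notch receptors are single-pass membrane proteins that are activated by ligands on a neighbouring cell. Mib1 ubiquitinates the ligand in the sending cell, its endocytosis pulls on the receptor, and ADAM and gamma-secretase cleavage then frees an intracellular domain that joins Rbpj on target genes. In muscle, Notch signalling is known for keeping MuSCs quiescent and Pax7-positive, with ligands presented by muscle fibres and endothelial cells. Notch4 and Dll4 are best known from endothelium and Notch3 from MuSCs and from the mural cells of vessels.

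The libraries held 36636680 (WT) and 43699831 (dKO) reads, and 14885 genes reached 10 counts in 1 library or both and are called measured, all 9 members among them. With 1 library per group there is no replicate check and no test of genotype, so every statement compares these 2 libraries, and intervals cover counting error only. For Esr2 there were 71 (WT) and 45 (dKO) counts, which check nothing about the label because the labels do not say which part of the gene was deleted. The sorted cell type was present by its defining genes, with 22335 and 12620 counts of Pax7 and 9711 and 8337 of Myf5.

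The sorted cells of both genotypes carried mainly Notch3, Notch1 and Notch2 RNA on the receptor side and Jag1 and Dll1 RNA on the ligand side. In the dKO library, Notch3 was 1.45-fold higher and Notch2 was 1.30-fold lower than in WT, while Notch1, Dll1, Jag1 and Mib1 lay within 1.13-fold of WT. The size of these differences depends on how the libraries were scaled, as given below for each of these genes. The scarce members Notch4 and Jag2 were 2.55-fold and 2.44-fold lower, and the likewise scarce Dll4 was not lower. By a rule of size, a log2 ratio of at least 1 in either direction on the scale of CPM + 1 (CPM being counts relative to the scaled library size), 2 of the 9 members were lower in dKO, 0 were higher and 7 were neither; with a trend on abundance and transcript length removed, 0 were 2-fold apart. Among all measured genes, 4.30% were lower and 1.92% higher by the same rule (640 and 286 genes; 1040 and 130 under library totals alone, and 429 and 306 with that trend removed). The median log2 ratio was −0.06 over the members and −0.02 over all measured genes, and −0.31 and −0.24 when libraries were scaled by their totals alone.

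**Figure D1:**
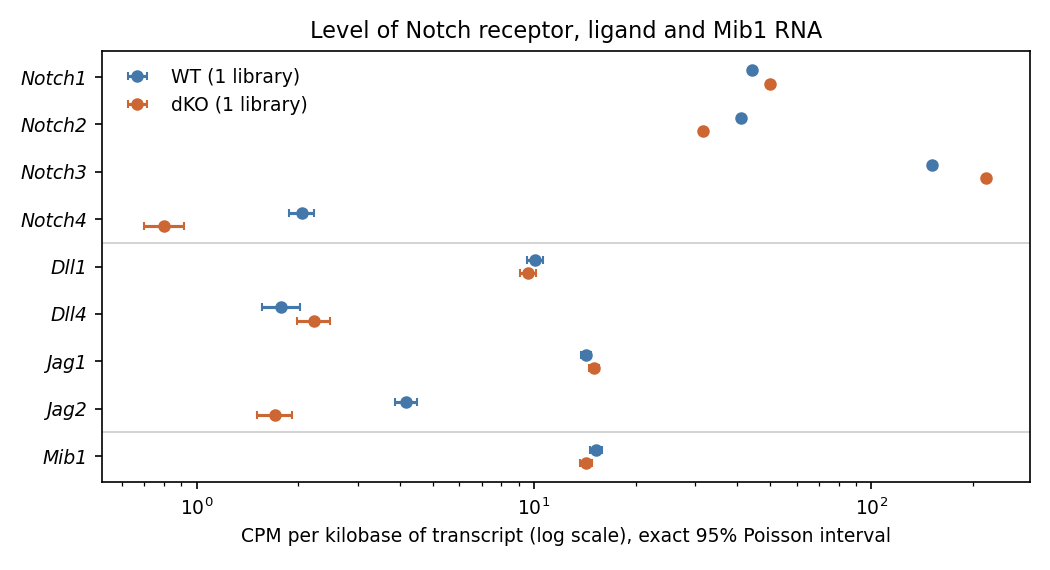
RNA level of the 9 members in the WT (blue) and dKO (orange) library, as CPM per kilobase of transcript on a log axis, with exact 95% Poisson intervals; horizontal lines part receptors, ligands and Mib1. Notch3 stands above the rest at 151 and 219, and Notch4, Dll4 and Jag2 lie between 0.802 and 4.17.

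The regions before the start of 3 receptor genes are shown because their RNA sets the main contrast: Notch3, the most abundant member, Notch2, the abundant receptor that was lower in dKO, and Notch4, which was past the 2-fold line. Each line gives the 250 bases before a RefSeq transcript start on GRCm38.p6 (the assembly that mm10 names), 5′ to 3′ on the gene's strand. The windows are chr17:32166891-32167140 on the minus strand (Notch3), chr3:98013288-98013537 on the plus strand (Notch2) and chr17:34564045-34564294 on the plus strand (Notch4). The start used for Notch3 lies inside the gene's outermost RefSeq bounds, so that 6 bases of its window overlap them, and the same holds for 9 bases of the Notch4 window. Capitals mark GC-boxes (GGGCGG, both strands, the Sp1 motif).
Notch3: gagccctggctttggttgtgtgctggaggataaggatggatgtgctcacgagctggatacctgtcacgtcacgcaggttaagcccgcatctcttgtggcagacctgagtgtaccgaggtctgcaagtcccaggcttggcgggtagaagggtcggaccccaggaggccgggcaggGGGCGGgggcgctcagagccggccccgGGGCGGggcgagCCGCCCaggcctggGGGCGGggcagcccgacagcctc
Notch2: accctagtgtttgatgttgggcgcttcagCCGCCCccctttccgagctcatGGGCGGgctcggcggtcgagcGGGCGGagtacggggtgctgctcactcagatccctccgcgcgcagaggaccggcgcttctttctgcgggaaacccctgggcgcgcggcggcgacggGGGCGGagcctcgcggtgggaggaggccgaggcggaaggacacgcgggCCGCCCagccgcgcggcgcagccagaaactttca
Notch4: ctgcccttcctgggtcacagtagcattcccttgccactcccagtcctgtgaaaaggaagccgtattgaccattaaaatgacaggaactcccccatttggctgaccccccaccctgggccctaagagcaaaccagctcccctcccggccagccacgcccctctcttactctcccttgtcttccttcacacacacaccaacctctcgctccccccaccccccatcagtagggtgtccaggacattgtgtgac
The Notch3 window held 4 GC-boxes, the Notch2 window 5 and the Notch4 window 0. RefSeq windows were at hand for 8 of the 9 members (9 windows, 2 of them for Dll1). The Jag2 window and 1 of the Dll1 windows lie wholly inside their gene's outermost bounds and so are not strictly upstream. GC-boxes were found for 5 of these 8 genes (Notch1, Notch2, Notch3, Dll4 and Jag2) and in 32.7% of 32851 windows of the same length over all genes. The E-box CAGCTG, a motif bound by myogenic factors such as MyoD, was found for Jag1 and at 1 of the Dll1 starts, and in 13.0% of all windows. The core motif of Rbpj (GTGGGAA, both strands) was in 0 of the 9 windows and in 5.42% of all, and the AP-1 motif (TGACTCA or TGAGTCA, both strands) in 0 and in 4.46%. The windows were GC-rich, from 56.0% to 87.2% against a median of 52.4%. A match is a description of letters, and no match says only that they are not in the window.

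Notch3 (protein-coding, Entrez ID 18131; GRCm38 chromosome 17, 32120820 to 32166896), found in quiescent MuSCs, was the most abundant receptor of either library. Its counts were 48038 in the WT and 69685 in the dKO library, or 151 and 219 CPM per kilobase of its 7943-base transcript. The dKO level was 1.45-fold that of WT (exact 95% interval 1.43 to 1.47), with a log2 ratio of 0.54. That ratio stood at percentile 88.9 of all measured genes. Under library totals alone the log2 ratio was 0.28, and with a trend on abundance and transcript length removed it was 0.36. Notch3 was higher in each case, but the size depends on the processing.

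Notch1 (ID 18128, chromosome 2, 26457902 to 26503822) encodes a receptor known to help keep MuSCs quiescent. It had 16789 and 18936 counts, or 44.2 and 49.9 CPM per kilobase, a ratio of 1.13 (1.10 to 1.15) and a log2 ratio of 0.17. Scaled by library totals alone the log2 ratio was −0.08, so no direction can be given for Notch1.

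Notch2 (ID 18129, chromosome 3, 98013538 to 98150367) had 17297 and 13343 counts, or 41.2 and 31.7 CPM per kilobase. It was the abundant receptor that was lower in dKO, at 0.771 of the WT level (0.754 to 0.789; log2 ratio −0.37). Under library totals alone the log2 ratio of Notch2 was −0.63, and with the abundance and length trend removed −0.49. In WT, Notch1 and Notch2 were close per kilobase (ratio 1.07), and in dKO Notch1 was 1.57 times Notch2.

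Notch4 (ID 18132, chromosome 17, 34564286 to 34588543) was scarce and lower in dKO. Its 541 WT counts (496 to 589, exact 95% Poisson) compared with 212 dKO counts (184 to 243), or 2.05 and 0.802 CPM per kilobase. The dKO level was 2.55-fold lower (2.17 to 3.01), with a log2 ratio of −1.21 at percentile 2.49 of all measured genes. Among the 3411 genes with 300 to 1000 counts in the higher library, 5.45% were lower and 1.32% higher by the 2-fold rule. After removal of a trend on abundance and transcript length the log2 ratio of Notch4 was −0.85, below 0 but no longer 2-fold.

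The make-up of the receptor pool does not depend on how the libraries are scaled. Notch3 was 58.1% of receptor reads in WT (57.8% to 58.4%) and 68.2% in dKO (67.9% to 68.5%). Notch2 went the other way, from 20.9% (20.6% to 21.2%) to 13.1% (12.9% to 13.3%). The Notch1 share was 20.3% and 18.5%, and that of Notch4 0.654% and 0.207%. Per kilobase, Notch3 was 63.4% of the receptor RNA in WT and 72.7% in dKO. The ratio of Notch3 to Notch2 per kilobase was 3.67 in WT and 6.91 in dKO, a 1.88-fold difference (1.83 to 1.93), and that of Notch3 to Notch1 was 3.42 and 4.40, a 1.29-fold difference (1.26 to 1.32).

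**Figure D2:**
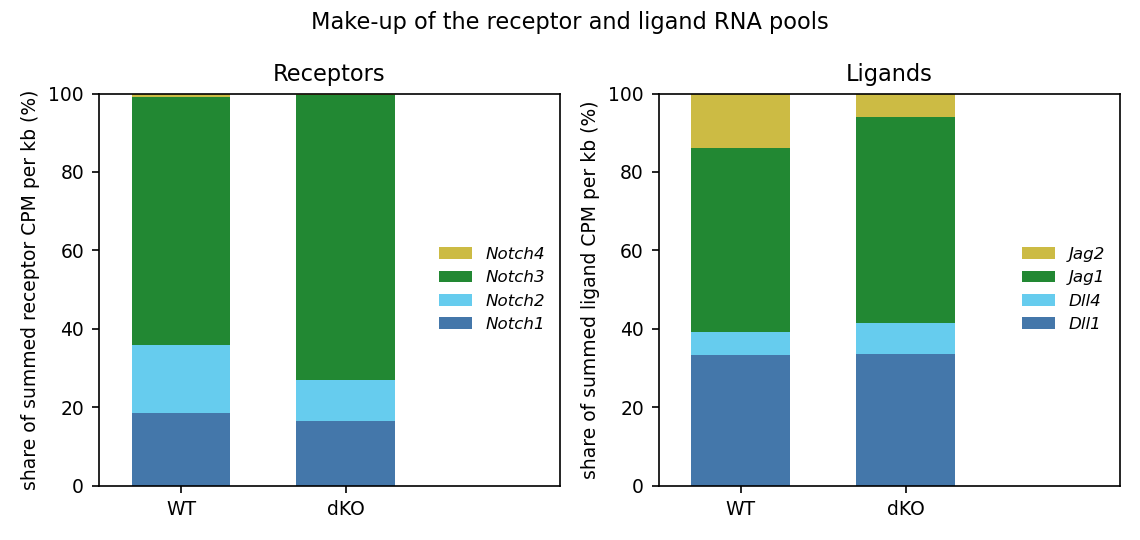
Share of each receptor (left) and ligand (right) in the summed CPM per kilobase of its pool, for the WT and dKO library. The Notch3 segment is 63.4% in WT and 72.7% in dKO, and the Jag2 segment 13.8% and 5.98%.

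Ligand RNA was far scarcer than receptor RNA. The 4 ligands summed to 30.2 CPM per kilobase in WT and 28.6 in dKO, and the receptors to 239 and 302, which is 7.89 and 10.6 times as much. As background, MuSCs are known chiefly as receiving cells of this signal. Fibre RNA was present in both libraries: 8 myofibre markers summed to 998 CPM in WT and 834 in dKO, so ligand RNA of fibres cannot be told apart from that of MuSCs.

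Jag1 (ID 16449, chromosome 2, 137081451 to 137116520), a Serrate-type ligand, was the most abundant. It had 3129 and 3301 counts, or 14.2 and 15.0 CPM per kilobase, a ratio of 1.05 (1.004 to 1.11). Under library totals its log2 ratio went from 0.08 to −0.17, so no direction can be given.

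Dll1 (ID 13388, chromosome 17, 15367354 to 15376932), a Delta-type ligand made by myogenic cells, had 1378 and 1318 counts, or 10.0 and 9.61 CPM per kilobase. Its ratio was 0.956, with an interval (0.886 to 1.03) that includes 1. Under library totals alone its log2 ratio went from −0.06 to −0.31, beyond that interval, so the size of its difference depends on the scaling.

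Jag2 (ID 16450, chromosome 12, 112907803 to 112929812), the other Serrate-type ligand, was lower in dKO. Its 677 WT counts (627 to 730) compared with 277 dKO counts (245 to 312), or 4.17 and 1.71 CPM per kilobase, and was 2.44-fold lower (2.12 to 2.82; log2 ratio −1.18). With the trend on abundance and length removed the log2 ratio was −0.96, just short of 2-fold. Its share of ligand reads was 12.5% in WT (11.6% to 13.4%) and 5.32% in dKO (4.73% to 5.97%).

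Dll4 (ID 54485, chromosome 2, 119325784 to 119335666), the Delta-type ligand of arterial and sprouting endothelium, was the scarcest member in WT. The WT library held 246 of its reads (216 to 279) and the dKO library 307 (274 to 343), or 1.78 and 2.22 CPM per kilobase, a ratio of 1.25 (1.05 to 1.48). Its log2 ratio of 0.28 was 0.06 under library totals. Dll4 thus parted from the other scarce members: the ratio of Dll4 to Notch4 was 3.18-fold higher in dKO (2.53 to 4.01) and that of Dll4 to Jag2 3.05-fold higher (2.45 to 3.79). The ratio of Notch4 to Jag2 was 0.958 of its WT value, with an interval (0.775 to 1.18) that includes 1.

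Mib1 (ID 225164, chromosome 18), which arms the ligands for endocytosis, had 2320 and 2165 counts, or 15.3 and 14.3 CPM per kilobase. Its ratio of 0.933 (0.879 to 0.990) made it one of the least different members under the main scaling. Under library totals alone its log2 ratio went from −0.10 to −0.35, so that rank depends on the scaling. By level per kilobase the order in WT was Notch3, Notch1, Notch2, Mib1, Jag1, Dll1, Jag2, Notch4 and Dll4. In dKO it was Notch3, Notch1, Notch2, Jag1, Mib1, Dll1, Dll4, Jag2 and Notch4. The counting intervals of Mib1 and Jag1 overlapped in both libraries, and those of Notch4 and Dll4 overlapped in WT.

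**Figure D3:**
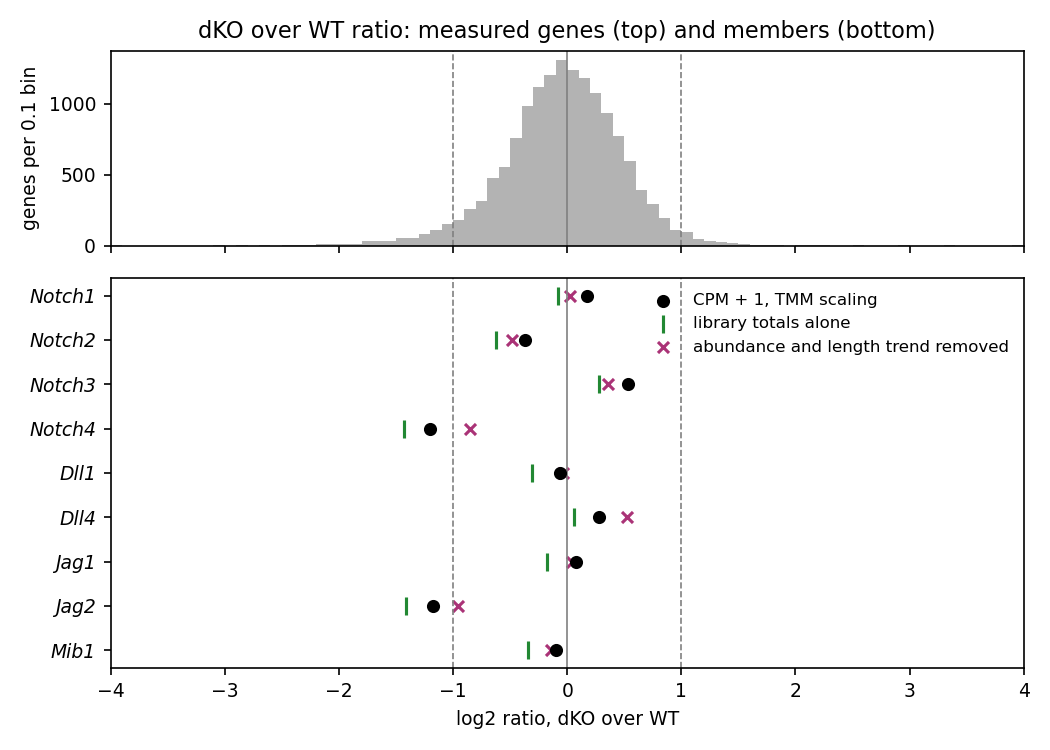
Top, number of measured genes per 0.1 of log2 ratio (dKO over WT; values beyond 4 in size are set to 4); bottom, the 9 members under TMM scaling (dots), library totals (bars) and with the abundance and length trend removed (crosses). Dashed lines mark 2-fold. Notch4 (−1.21) and Jag2 (−1.18) are past the lower line as dots and short of it as crosses (−0.85 and −0.96).

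Few other genes of the pathway were 2-fold apart. Of 59 listed genes, 56 were measured; 1 was lower by 2-fold (1.79%, against 4.30% of all measured genes), 0 were higher, 33 were below 0 and 23 above, with a median log2 ratio of −0.06. Hes6, a Hes-family factor that opposes Hes1, was the lower one, with 629 and 289 counts and a log2 ratio of −1.02. The rule uses CPM + 1, which shrinks the ratios of scarce genes. As folds of CPM, the measure given for Notch4 and Jag2, Lfng was 2.53-fold lower (1.72 to 3.78) and Neurl3 2.06-fold lower (1.65 to 2.57). Both were named after their values were seen, and no measured pathway gene was 2-fold higher by that measure.

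Among 7 genes of ligand ubiquitination and trafficking the median was −0.14, with the epsin gene Epn1, an endocytic adaptor, at 0.13 and the dynamin gene Dnm2 at −0.14. Of 3 measured other ligands, Megf10, a MuSC membrane protein linked to Notch signalling, had 13328 and 11107 counts and a value of −0.26, and Dlk1, a ligand-like protein without a DSL domain, one of −0.03. The 6 genes that fold and glycosylate the receptors had a median of −0.37. In that list Furin, the convertase that makes the S1 cleavage of the receptor, was at 0.82 (6880 and 12188 counts) and the fringe gene Rfng at −0.14. Named after their values were seen, the other fringe genes Lfng (96 and 38 counts) and Mfng (185 and 99), which tune receptor choice between Delta and Jagged ligands, were at −0.80 and −0.70.

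The 9 genes of ADAM and gamma-secretase cleavage ran from −0.33 to 0.44 with a median of −0.02. The gamma-secretase subunits Ncstn and Psenen were at 0.22 and 0.02. The 11 genes of receptor turnover had a median of −0.08, with the ubiquitin ligases Nedd4 at −0.08 (45529 and 43002 counts) and Dtx3 at 0.21. Of 9 nuclear genes, with a median of 0.02, the deacetylase gene Hdac1 was at 0.35.

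Genes listed here as Notch targets, Hes6 among them, lay on both sides of 0. Of 11 measured, 4 were above 0 and 7 below, with a median of −0.07. Those above were Hey1, Col5a1, Col6a1 and Calcr, so Hey1 was the only measured Hes, Hey or Nrarp gene above 0. Heyl, the most abundant Hey-family target here, had 37312 and 36031 counts (−0.05), and Col6a1, a collagen gene of the MuSC niche, 26361 and 28903 (0.13). Named after their values were seen, Hey1 was at 0.58 (2074 and 3116 counts) and Hes1 at −0.45 (2973 and 2174), on opposite sides of 0. Hey2 (251 and 141 counts) and Nrarp (501 and 383), likewise named afterwards, were at −0.69 and −0.36. Rbpj is uncertain at the level of transcripts: its 4 rows summed to a log2 ratio of 0.28, while the row with 7073 WT counts had 2479 in dKO and another went from 1406 to 8051. Each Notch member has 1 row, so no such choice enters the members' values.

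**Figure D4:**
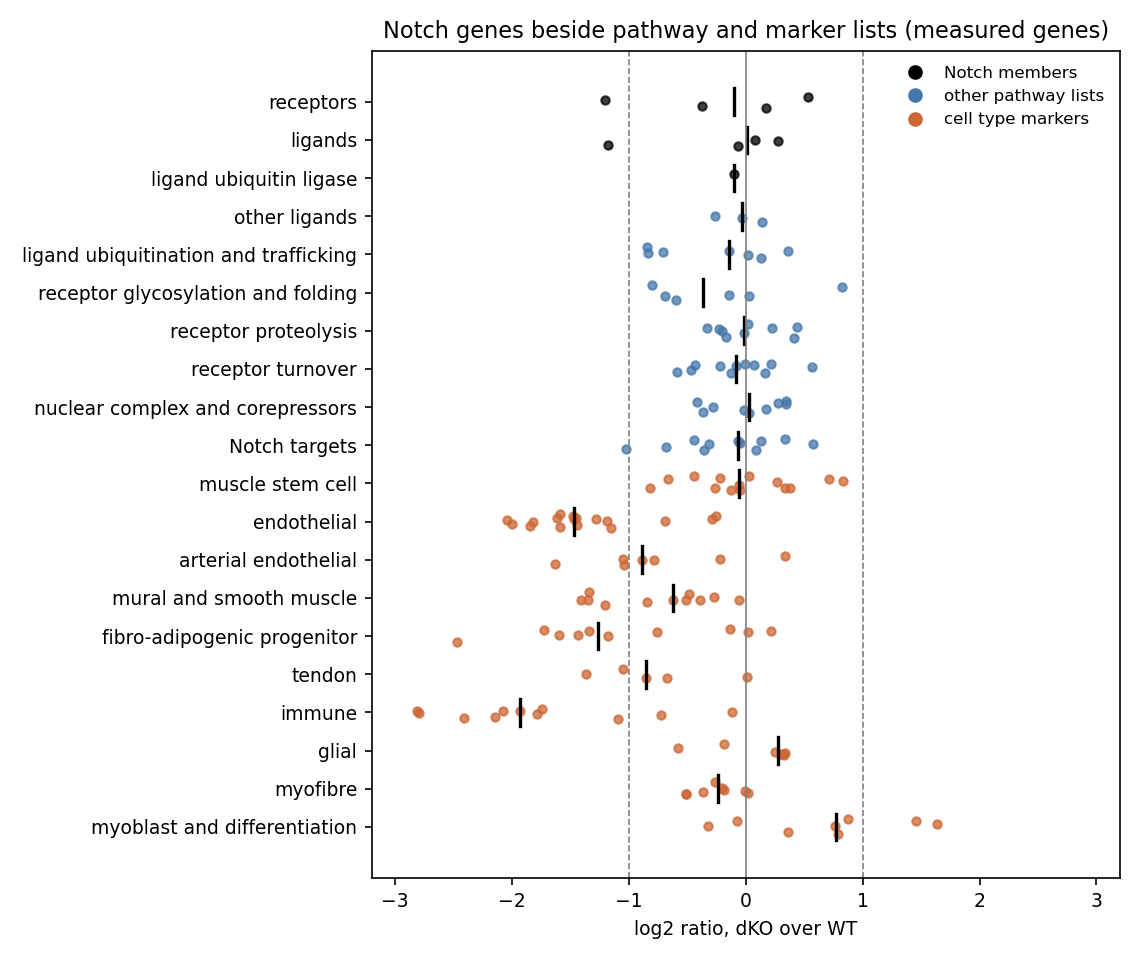
log2 ratio (dKO over WT) of each measured gene in the member lists (black), 7 further pathway lists (blue) and 10 cell type marker lists (orange); bars are list medians, dashed lines mark 2-fold and vertical scatter is only for display. Pathway medians lie between −0.37 and 0.02, and the endothelial and immune medians are −1.47 and −1.93.

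Endothelial, immune and several stromal marker lists were lower in dKO, as Notch4 and Jag2 were, while glial, myofibre and myoblast lists held no member lower by 2-fold. Of 17 endothelial markers, 14 were lower in dKO by 2-fold and 0 higher, with a median of −1.47, and none was at 0 in either library. Their summed level was 910 CPM in WT and 399 in dKO, with Pecam1 (CD31) at 4745 and 1673 counts and Eng at 4863 and 2998. In bulk RNA, fewer cells of a type and less RNA per cell cannot be told apart. In proportion to the summed reads of these 17 markers, Notch4 and Jag2 differed between the libraries by no more than counting error. That sum leans on Tek (5679 and 4762 counts, log2 ratio −0.25) and Eng (log2 ratio −0.69). These had the most reads of the list in both libraries and were not 2-fold lower. The statement on Notch4 and Jag2 therefore covers this sum only. Because Tek and Eng fell less than the list as a whole, leaving them out would raise the ratios given next, by an amount not calculated. Per 1000 endothelial marker reads there were 14.9 Notch4 reads in WT and 13.3 in dKO, a ratio of 0.894 (0.762 to 1.05). For Jag2 these were 18.6 and 17.4, a ratio of 0.933 (0.811 to 1.07). For Dll4 they were 6.76 and 19.2, a ratio of 2.85 (2.40 to 3.37). The remaining members were also above 1 against this list, from 1.76 for Notch2 to 3.31 for Notch3. Of the 17 markers, 12 had a lower log2 ratio than Notch4 and 13 a lower one than Jag2. The part of endothelial RNA in the Notch4 and Jag2 difference was not tested.

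The proportion depends on the list. Of 7 markers of arterial endothelium, 3 were lower by 2-fold and 0 higher, with a summed level of 186 CPM in WT and 116 in dKO. Against these, Notch4 was at 0.627 of its WT proportion (0.532 to 0.738) and Jag2 at 0.654 (0.566 to 0.756). Against mural markers Notch4 was at 0.560 and Jag2 at 0.585, and against tendon markers at 0.825 and 0.862. Against immune markers they were at 1.43 and 1.49, and against MuSC markers at 0.324 and 0.339. With Sdc4, the most abundant MuSC marker, left out, the MuSC values were 0.390 and 0.408. Dll4 was at 1.03 (0.873 to 1.22) against MuSC markers and at 1.24 (1.05 to 1.47) without Sdc4. Of the other marker lists, the immune one had 9 of 11 lower (117.6 and 32.3 CPM in sum, with Ptprc, the CD45 gene, at 200 and 17 counts) and the fibro-adipogenic progenitor one 6 of 10 (2669 and 1811 CPM, with Ly6a, the Sca1 gene, at 2316 and 386). Of 5 tendon markers 2 were lower, Scx and Thbs4, with 4323 and 2052 CPM in sum.

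The glial, myofibre and myoblast lists did not share this direction by 2-fold. Of 6 glial markers 0 were 2-fold apart (median 0.28; 235 and 215 CPM), and of 8 myofibre markers 0 (median −0.24), with Acta1 at 9351 and 6533 counts and Actn3 at 13823 and 13751. Of 8 myoblast and differentiation markers, 6 were above 0 and 2 below, with a median of 0.77. Their sum was 184 CPM in WT and 498 in dKO, of which Myod1 alone made 135 and 422. By 2-fold, 2 were higher and none lower. The higher ones were Myod1, the master regulator of myogenic commitment (5396 and 16886 counts, log2 ratio 1.64), and the cardiac actin gene Actc1 (102 and 351, 1.46). Named after their values were seen, the proliferation genes Mki67 and Top2a were at 0.79 and 0.76. The markers below 0, likewise named afterwards, were Myog (749 and 709 counts, −0.08) and Myh8 (10 and 0 counts, −0.32). The part of these marker differences in the Notch3 and Notch2 differences was not tested.

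Notch3 went against the mural markers. Of 11 mural and smooth muscle markers, 4 were lower by 2-fold and 0 higher, with a median of −0.62. Their summed level was 1801 CPM in WT and 1260 in dKO, with none at 0, and Acta2 and Tagln the most abundant per kilobase. Per 1000 mural marker reads there were 667 Notch3 reads in WT and 1382 in dKO. The other members, apart from Notch4 and Jag2, were also higher against this falling list, from 1.10-fold for Notch2 to 1.78-fold for Dll4. Against 14 MuSC markers, of which 0 were 2-fold apart (median −0.05; 9202 and 11115 CPM in sum), Notch3 was at 1.20 of its WT proportion (1.19 to 1.22) and Notch2 at 0.638 (0.624 to 0.653). These values rest on Sdc4, the most abundant marker of the list (119223 and 194985 counts): without it, a choice made after seeing the data, Notch3 was at 1.45 (1.43 to 1.46) and Notch2 at 0.769 (0.751 to 0.787). Within the list Vcam1, the gene of the antigen used for the sort, was at 0.83 and Pax7 at −0.82, so the list itself was not level. The count of 0 markers 2-fold apart depends on the processing. Under library totals alone Pax7 was at −1.08 and Vcam1 at 0.58, with a list median of −0.31. With the abundance and length trend removed they were at −1.14 and 0.45, Cxcr4 was at −1.04 and the list median was −0.44.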

How the data were processed

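RNA-seq of 1 WT and 1 dKO library was used. Values in the deposited table are raw read counts, 1 row per transcript, beside an Entrez ID and a length taken as bases, per the file headers. The submitters' processing notes name the mm10 build, bedtools, edgeR and TopHat2 (2.0.9) without their roles. How reads were counted, on which annotation and with what strand setting, is not stated there. Reads of overlapping or antisense genes therefore cannot be told apart: 6 members overlap another RefSeq gene, and those of the 12 overlapping genes that are in the table had at most 6 counts. Some genes, such as the further one of the dKO genotype, are not reported here.

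The 36780 rows were summed per gene ID, and 24462 of 24532 IDs matched a RefSeq symbol on GRCm38; each member had 1 row. Library sizes were scaled by TMM (edgeR 4.0.16, R 4.3.3; factors 1.09 for WT and 0.916 for dKO). Log2 ratios used CPM + 1, and folds used CPM with exact conditional binomial (Clopper-Pearson) 95% intervals. Levels between genes were divided by transcript length. With 1 library per group no test was made; genes were called by size alone (log2 ratio of 1 or more in either direction, and 10 or more counts in 1 of the libraries). Amplified reads are not independent molecules, so intervals cover counting error only.

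Alternatives were median-ratio scaling, library totals, pseudocounts of 0.1 and 5, the row with the highest share, count minimums of 1 and 100, 1.5-fold and 4-fold rules, and residuals from a cubic fit on log abundance and log length. Pathway lists and markers, the members and the naming rule (all members; per list, genes 2-fold apart and up to 2 most abundant; sort antigens; the 3 genes nearest to the most shifted member) were chosen with earlier results of these data known. The steps were tested on simulated counts.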

Additional observations from a re-analysis of the deposited data

How the results depend on the processing

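Of 54 member values under the 6 alternatives of scaling, pseudocount, row and trend, 40 stayed within their counting interval, 14 moved beyond it and 0 of the called ones changed sign. Notch4 ran from −1.43 to −0.85 and Jag2 from −1.41 to −0.88. The 2 lower members became 0 with a pseudocount of 5, with the trend removed and by the 4-fold rule. Removal of the trend also takes out any shared shift of genes of like abundance and length. Lower pathway genes, 1 as reported, were 3 under library totals, 3 with a pseudocount of 0.1, 0 with a pseudocount of 5, 4 by the row with the highest share, 9 by the 1.5-fold rule and 0 by the 4-fold rule; higher ones, 0 as reported, were 1 by the 1.5-fold rule. Lower markers, 38 as reported, were 22 with a pseudocount of 5 and 8 by the 4-fold rule; higher ones, 2 as reported, were 1 with a pseudocount of 5, 4 with the trend removed, 7 by the 1.5-fold rule and 0 by the 4-fold rule. Over all genes, 640 lower and 286 higher became 1040 and 130 under library totals. They were 1653 and 698 with a pseudocount of 0.1, and 187 and 154 with a pseudocount of 5. The 1.5-fold rule gave 1955 and 1336 and the 4-fold rule 56 and 25. By the row with the highest share the lower and higher genes were 936 and 474. Under library totals the median of the members was −0.31. Why the counts moved with scaling, row choice or removal of the trend was not tested; the pseudocounts and fold rules change the low values or the threshold by construction. No paired analysis was possible because each group has 1 library, and leaving out a library leaves no comparison.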

Other observations

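The genes nearest to Notch4 in log2 ratio and level per kilobase, over 2 libraries, were Ceacam1 (293 and 98 counts, log2 ratio −1.27), a cell adhesion receptor, Xirp1 (459 and 173, −1.23), an actin-binding protein of striated muscle, and Trabd2b (558 and 205, −1.29). With 2 libraries each gene has a single ratio, so this likeness is a description of size and level only.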
